A study of Homo sapiens with 6 samples.

Results

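The genes described here are SPI1, which encodes the myeloid transcription factor PU.1, and 7 genes that mark or serve myeloid cells: the transcription factor gene CEBPB, the surface receptor genes CD33 and FCGR2A, the Fc receptor adaptor gene FCER1G, the endolysosomal membrane protein genes CD68 and LAPTM5, and the lysozyme gene LYZ. They were taken by name from a table of 19498 genes, and all 8 were found. They were measured in K562, a leukaemia line with the BCR::ABL1 fusion kinase and with erythroid and megakaryocytic features, established from a patient with chronic myeloid leukaemia. Polyadenylated RNA was sequenced from 3 biological replicates of cells labelled ACK KO and 3 of cells labelled WT, both untreated and grown in RPMI with 10% serum. ACK is a non-receptor tyrosine kinase, encoded by TNK2, that binds the GTPase Cdc42, and the series sets it beside STAT5 as a driver of transcription in these cells. The edit in the knockout, and whether it is 1 clone, are not stated in the sources used here, so the genotype and the particular line or clone cannot be told apart.

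PU.1 is an ETS-family factor that binds purine-rich DNA such as GAGGAA and directs progenitors towards macrophages, granulocytes and B cells. It opposes GATA1, the erythroid master factor, and each can hold the other in check. C/EBP factors act with PU.1 on many myeloid promoters. The products of many of these target genes form the machinery of phagocytes, such as Fc receptors that bind antibody, sialic-acid receptors that damp signals, integrins and lysosomal proteins.

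Values are normalised read counts, so the comparisons are relative within this table, and read depth is unknown. Their sums ran from 43478033 to 49450552 in the KO-labelled libraries and from 46690187 to 53301879 in the WT libraries. TNK2 itself had values of 741, 506 and 598 in the KO-labelled libraries, against 829.7, 613 and 642 in WT. The groups overlapped, with a log2 difference of -0.18 (SE 0.21; adjusted p 0.681 with limma, and 0.207 with the replicate number as a block), so the amount of TNK2 mRNA does not check the label. All 15 erythroid markers looked for had values, with sums of 80276 to 133706 in KO-labelled and 67549 to 149151 in WT libraries. Of 18 monocyte and macrophage markers 5 had a value that was used here, summing to 313 to 1939 in KO-labelled and 1161 to 3888 in WT libraries. Most of these sums was ITGAM, at 194 to 1690 in KO-labelled and 1088 to 3712 in WT libraries, with overlapping groups. ITGAX had the higher mean in KO-labelled libraries, at 106 against 51.9 in WT, also with overlapping groups. CD14, the defining monocyte marker, lay between 2.91 and 3.49 in KO-labelled and between 5.80 and 13.3 in WT libraries. Of 10 neutrophil granule markers 4 had a value, summing to 131 to 658 in KO-labelled and 90.2 to 621 in WT libraries. Neither of the 2 neutrophil markers tested and none of the 3 monocyte and macrophage markers tested passed (limma; 0 at an unadjusted p of 0.05, and with the replicate block 1 neutrophil marker higher and 1 monocyte marker lower). Among other cell types, 2 of 14 tested erythroid markers were higher in the KO-labelled libraries, and 1 of 5 megakaryocyte markers was higher and 1 lower. Of 4 mast cell and basophil markers 2 were lower (KIT and FCER1A), and 3 of 5 fibroblast and epithelial markers were higher (KRT19, KRT8 and COL1A1). FCER1A was tested because of its WT values alone, since its KO-labelled values were all under 10. COL1A1 was low in WT, at 12.0, 4.68 and 32.2, against 204, 74.6 and 121 in KO-labelled libraries. Its call held in only 1 of the fits that left out 1 library. Over all tested genes 10.3% passed, 4.96% lower and 5.37% higher. None of 3 B cell and none of 3 T and NK cell markers passed (limma; 0 of them at an unadjusted p of 0.05, and 1 B cell marker higher with the replicate block). The part of these markers in the results below was not tested.

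Of the 8 genes, 7 reached a value of 10 in at least 3 of the 6 libraries and were tested, and FCER1G did not. LAPTM5, FCGR2A, CD68 and CD33 fell in the KO-labelled libraries at an adjusted p below 0.05 (limma on log2(value + 1), Benjamini-Hochberg over 16658 genes). SPI1, CEBPB and LYZ did not pass. Of all tested genes 10.3% passed, 4.96% lower and 5.37% higher, against 4 lower and 0 higher of these 7 (6 of the 7 had an unadjusted p under 0.05). The median log2 difference was -1.22 for the 7 genes and -0.02 for all tested genes. The 8 genes were chosen with earlier results of these data known, so these comparisons are no support for a shift of myeloid genes. Libraries with the same replicate number deviated together in both genotypes, so the number was also used as a block. Replicates 2 and 3 also deviated together across numbers, so their pairing by number is less clear. With that number as a block SPI1 also fell and CEBPB rose, which made 5 lower and 1 higher of 7. In that fit 39.7% of all tested genes passed, 20% lower and 19.7% higher. The counts were the same 5 and 1 without both replicate 1 libraries, where 28.4% of all tested genes passed, 13.8% lower and 14.6% higher. In 5 of the 7 genes each KO-labelled library lay below each WT library, and the groups were apart in 30% of all tested genes, 14.7% with KO lower and 15.2% with KO higher. In the unpaired fit the count of members fell to 1 without WT replicate 3 and without KO replicate 3, and to 2 without WT replicate 2 and without KO replicate 2. In the bulk RNA used here, fewer cells that express a gene and less RNA per cell cannot be told apart.

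**Figure D1:**
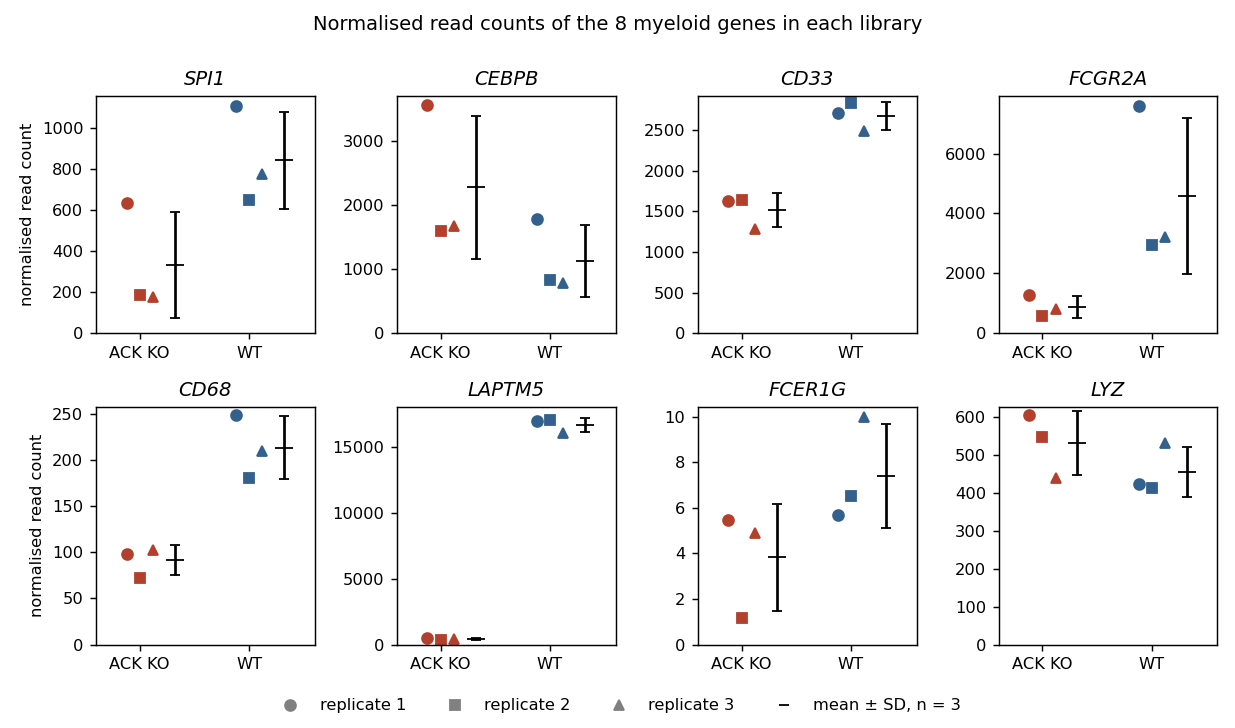
Normalised read counts (vertical axes, linear, from 0) of the 8 genes in each of 3 ACK KO libraries (left, red) and 3 WT libraries (right, blue); the symbol gives the replicate number and the bar the mean ± SD. LAPTM5 lay at 329 to 493 in the KO-labelled libraries and at 16075 to 17021 in the WT libraries, while replicate 1 stood above replicates 2 and 3 in both genotypes for SPI1, CEBPB and FCGR2A.

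Promoter sequences of the 4 genes that fell are printed here to show where the letters GAGGAA can and cannot be read in them. The windows searched are the 250 bases before the transcription start in RefSeq (GRCh38.p14). Printed are the windows of CD33 (chr19:51224830-51225079, plus strand) and FCGR2A (chr1:161505207-161505456, plus strand), the first 204 bases of that of LAPTM5 (chr1:30757821-30758024, minus strand) and 30 bases around the match of CD68 (chr17:7579578-7579607, plus strand). GENCODE 29 starts these genes further upstream, so that 16 bases of the window of CD33, 27 of FCGR2A, 171 of CD68 and 46 of LAPTM5 lie inside the gene as annotated there. Capitals mark GAGGAA, here read on the opposite strand as TTCCTC.
CD33: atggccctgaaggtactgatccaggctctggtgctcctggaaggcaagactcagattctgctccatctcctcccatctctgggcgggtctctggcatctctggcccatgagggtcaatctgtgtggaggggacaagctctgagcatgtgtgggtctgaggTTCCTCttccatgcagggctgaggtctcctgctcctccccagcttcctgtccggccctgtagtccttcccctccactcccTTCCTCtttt
FCGR2A: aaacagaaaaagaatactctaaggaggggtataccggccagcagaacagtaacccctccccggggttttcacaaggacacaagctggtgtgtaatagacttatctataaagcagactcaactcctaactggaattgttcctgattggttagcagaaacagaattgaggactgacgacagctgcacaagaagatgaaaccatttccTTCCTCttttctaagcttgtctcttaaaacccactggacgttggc
CD68: tgagactttcatTTCCTCctttccaagaga
LAPTM5: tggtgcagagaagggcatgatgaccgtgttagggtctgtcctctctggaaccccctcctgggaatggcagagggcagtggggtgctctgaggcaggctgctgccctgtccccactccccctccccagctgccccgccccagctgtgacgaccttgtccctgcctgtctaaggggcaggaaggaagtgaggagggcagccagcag

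GAGGAA was found on either strand in the windows of CD33 (at -90 and -10 from the start), FCGR2A (at -45) and CD68 (at -48), and not in those of LAPTM5, CEBPB or FCER1G. These 6 of the 8 genes have a window in the table. The matches at -10 in CD33 and at -48 in CD68 lie inside the gene as GENCODE 29 annotates it. Among 35116 windows of the same length 23.6% hold GAGGAA. The C/EBP pattern TTGCNNAA was found in the CD68 window alone of the 6 genes, at -13 and likewise inside the annotated gene, against 9.05% of all windows. The GATA pattern AGATAA, which overlaps no other match here, was found in the FCGR2A window alone of the 6 genes, against 9.17% of all windows. The STAT pattern TTCNNNGAA was found in none of them, against 6.57% of all windows. A match describes letters in a window and says nothing of binding, and other forms of the PU.1 site were not searched.

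The transcription factors are described first. SPI1 is read from the minus strand at chr11:47354860-47378576 (GRCh38, GENCODE 29, as for all positions of genes given here). Its values were 633, 187 and 179 in KO-labelled replicates 1 to 3, against 1106, 648 and 777 in WT. Each KO-labelled library lay below each WT library, with KO replicate 1 just under WT replicate 2. The means were 333 ± 259.8 in KO-labelled and 844 ± 236 in WT libraries (SD, n = 3 each). The log2 difference was -1.57, with a 95% interval from -2.78 to -0.36. By limma the adjusted p was 0.113, which became 0.00231 with the block. Within the replicate numbers the log2 differences were -0.80, -1.79 and -2.11, so the smallest belonged to number 1. Without KO replicate 1 the log2 difference was -2.16 and the adjusted p 0.00889 (limma). The 4 nearest tested genes, NR1H3, MADD, SLC39A13 and PSMC3, had log2 differences between -0.08 and 0.40, and none passed in either fit.

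CEBPB is the gene of a basic leucine zipper factor that is induced in macrophage differentiation and inflammation. It lies on the plus strand of chromosome 20, from 50190734 to 50192689. Its values were 3566, 1597 and 1683 in KO-labelled replicates 1 to 3, against 1781, 830.2 and 793 in WT. The groups overlapped because WT replicate 1 exceeded KO replicates 2 and 3, while each KO-labelled library was above the WT library of its number. The means were 2282 ± 1113 in KO-labelled and 1135 ± 560.1 in WT libraries (SD, n = 3 each). The log2 difference was 1.01, with a 95% interval from 0.00 to 2.02. By limma the adjusted p was 0.209, which became 1.55e-04 with the block. The 3 differences within the replicate numbers were close together, at 1.00, 0.94 and 1.08 (log2). Over the 393 genes tested on chromosome 20 the median log2 difference was 0.54. After each library was centred on its chromosome the log2 difference of CEBPB was 0.47 (adjusted p 0.665, limma). Of the 4 nearest tested genes none passed without the block, and PEDS1 rose with it (log2 difference 0.47; adjusted p 0.0845, and 0.00532 with the block, limma). An antisense gene, CEBPB-AS1, overlaps CEBPB, with means of 98.3 in KO-labelled and 63.4 in WT libraries. The RNA kit is stranded, but the sources used here do not give the counting setting.

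Both factors shared a replicate pattern. Replicate 1 of SPI1 was 3.46 times the mean of replicates 2 and 3 in the KO-labelled group and 1.55 times in WT. For CEBPB the ratio was 2.17 in the KO-labelled group and 2.19 in WT, and for FCGR2A it was 1.85 in the KO-labelled group and 2.45 in WT. A ratio of at least 1.5 in both genotypes was found in 14.8% of all tested genes. For CD33, CD68, LAPTM5 and LYZ the ratios ran from 0.895 to 1.28. The ratio of CEBPB to SPI1 was 5.64, 8.56 and 9.40 in KO-labelled libraries, against 1.61, 1.28 and 1.02 in WT. The groups did not overlap (exact two-sided permutation p = 0.1, the smallest that 3 against 3 libraries allow; 0.375 adjusted over the 5 ratios computed). The ratio of SPI1 to GATA1 was 0.0906, 0.0265 and 0.0261 in KO-labelled libraries, against 0.112, 0.0733 and 0.0871 in WT. There KO replicate 1 lay within the WT range (exact p = 0.3, adjusted 0.375).

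**Figure D2:**
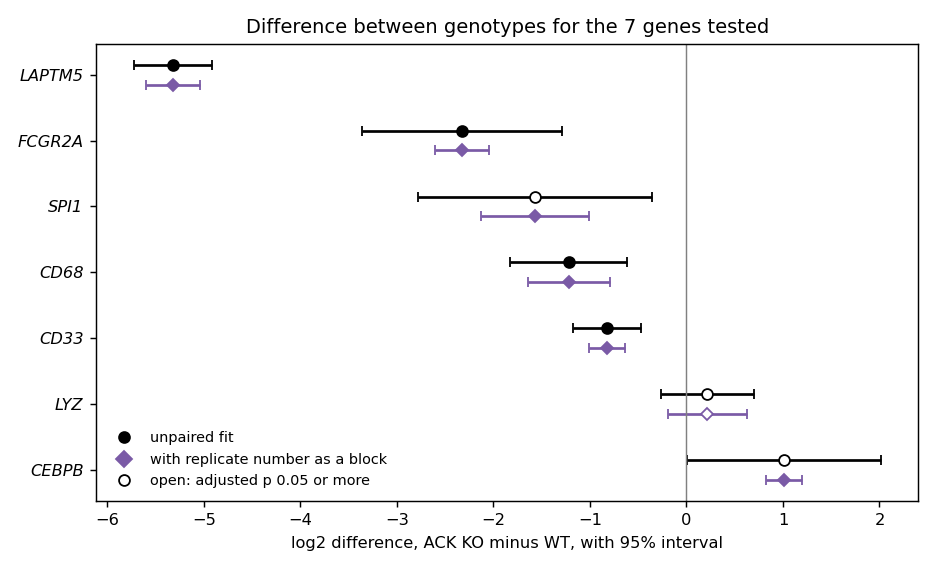
Log2 difference (horizontal axis, ACK KO minus WT) with its 95% interval for the 7 genes tested, from the unpaired limma fit (black circles) and from the one blocked on replicate number (purple diamonds); open symbols have an adjusted p of 0.05 or more. The intervals of CEBPB, FCGR2A and SPI1 narrowed most with the block, LAPTM5 stood apart at -5.32, and LYZ was open in both fits.

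Relatives of SPI1 and CEBPB were read from lists written with earlier results of these data known. For these and the later lists, 10.3% of all tested genes passed in the unpaired fit and 39.7% with the block. SPIB, the ETS factor closest to PU.1, had values of 104, 258 and 201 in KO-labelled libraries, against 83.8, 242 and 134 in WT (adjusted p 0.758, and 0.197 with the block, limma). Of 5 C/EBP-family genes tested, CEBPB included, CEBPD alone passed. It fell 2.01-fold, with values of 149.6, 123 and 116 in KO-labelled libraries, against 284, 238 and 259 in WT (adjusted p 0.0298, limma). With the block the other 4, CEBPB, CEBPA, CEBPG and DDIT3, rose. CEBPA is the granulocyte factor gene. CEBPA had means of 196 ± 72.8 in KO-labelled and 91.0 ± 27.9 in WT libraries (SD, n = 3 each; adjusted p 0.121, and 0.0043 with the block, limma).

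Among 16 tested factors that partner with or oppose PU.1, none passed in the unpaired fit (limma; 6 at an unadjusted p of 0.05), and 4 rose and 5 fell with the block. Their median log2 difference was 0.05, and with the block 20% of all tested genes passed lower and 19.7% higher. GATA1 had means of 6958 ± 85.5 in KO-labelled and 9213 ± 577 in WT libraries (SD, n = 3 each), with adjusted p-values of 0.0637 unpaired and 0.00256 blocked (limma). RUNX1, which acts upstream of SPI1 in blood development, had means of 3335 ± 522 in KO-labelled and 4752 ± 130.4 in WT libraries (SD, n = 3 each), with adjusted p-values of 0.0667 unpaired and 0.00315 blocked (limma). MYB, a progenitor factor gene, had means of 10222 ± 490.5 in KO-labelled and 13394 ± 1983 in WT libraries (SD, n = 3 each), with adjusted p-values of 0.1696 unpaired and 0.00616 blocked (limma). All 3 were lower in each KO-labelled library than in each WT library, and RUNX1 was named after its values were seen. Of the 16 factors 5 had KO wholly lower and 0 had KO wholly higher. Over all tested genes the groups were apart in these 2 ways in 14.7% and 15.2%.

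LAPTM5 was the gene that differed most of the 8. It encodes a lysosomal transmembrane protein of blood cells that recruits ubiquitin ligases and promotes the degradation of antigen receptors, and it is read from the minus strand at chr1:30732469-30757820. Its values were 493, 329 and 443 in KO-labelled libraries, against 16924, 17021 and 16075 in WT. The WT libraries lay within a narrow band and the KO-labelled libraries far below it. The means were 422 ± 83.9 in KO-labelled and 16673 ± 520.1 in WT libraries (SD, n = 3 each), a 40.0-fold fall (log2 difference -5.32, SE 0.17; adjusted p 3.78e-05, limma). Whichever single library was left out the call held, with log2 differences from -5.44 to -5.15. Near it, MATN1-AS1 had a log2 difference of 0.49 and did not pass in either fit. SDC3, next to LAPTM5, rose with the block (log2 difference 1.097; adjusted p 0.385, and 0.00201 with the block, limma). The ubiquitously expressed relatives LAPTM4A and LAPTM4B had log2 differences of -0.45 and 0.40 (adjusted p 0.0589 and 0.12, limma). With the block LAPTM4A fell and LAPTM4B rose, at adjusted p-values of 0.00458 and 0.00209 (limma).

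FCGR2A encodes the low-affinity IgG receptor CD32A, which carries its own activating ITAM, the tyrosine motif that recruits the kinase SYK. It lies on the plus strand of chromosome 1, from 161505430 to 161524013. Its values were 1262, 561.9 and 805 in KO-labelled libraries, against 7581, 2958 and 3219.6 in WT. Replicate 1 was the highest library of each group, and the groups were apart. The means were 876 ± 355 in KO-labelled and 4586 ± 2597 in WT libraries (SD, n = 3 each), a 5.01-fold fall (log2 difference -2.33, SE 0.44; adjusted p 0.0192, and 2.94e-05 with the block, limma). Within the replicate numbers the log2 differences were -2.59, -2.39 and -2.00. The call was lost without KO replicate 2, KO replicate 3 or WT replicate 3, with adjusted p-values of 0.0676, 0.0826 and 0.0563 (limma). Of the 50-base words in its GENCODE 29 transcripts 16.7% also occur in other genes, mostly FCGR2C, so reads could be split among these copies.

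Of 9 Fc receptor genes tested 4 passed lower, FCGR2A among them, and 5 did not pass. The other 3 that passed, FCGR2C, FCGR2B and FCER1A, had KO-labelled libraries under the filter and were tested because of their WT values, so their count adds no support. FCGR2C had values of 18.5, 5.39 and 9.15 in KO-labelled libraries, against 77.6, 50.5 and 53.7 in WT, and is uncertain for the reason just given. FCGR2B, the inhibitory receptor gene, had 3.19, 1.20 and 6.89 in KO-labelled libraries, against 29.9, 19.6 and 21.8 in WT. FCER1A, the IgE-binding chain of the mast cell receptor, had 5.58, 2.74 and 4.80 in KO-labelled libraries, against 22.96, 18.6 and 32.4 in WT. HSPA6, a heat shock gene between FCGR2A and FCGR2C, also fell, with 63.2, 16.9 and 39.6 in KO-labelled libraries, against 294, 128 and 139.7 in WT (adjusted p 0.0473, limma). FCGRT, the neonatal receptor that recycles IgG, rose with the block alone, with means of 370.3 ± 176 in KO-labelled and 151 ± 108 in WT libraries (SD, n = 3 each; adjusted p 0.174, and 0.00117 with the block, limma).

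FCER1G encodes the gamma chain that pairs with Fc receptors lacking their own ITAM. Its values were 5.46, 1.15 and 4.87 in KO-labelled libraries, against 5.68, 6.53 and 9.98 in WT. Each KO-labelled value was below each WT value, at a level too low for the filter. TYROBP, another ITAM adaptor gene, had 0.999, 0 and 0 in KO-labelled libraries, against 6.58, 9.77 and 5.44 in WT, and was not tested.

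Of 16 tested genes that relay ITAM signals 6 fell and 1 rose. Of the 6, SYK, INPP5D and VAV3 had KO-labelled libraries under the filter and were tested because of their WT values. SYK, the kinase that docks on phosphorylated ITAMs, had 0.591, 20.6 and 0.63 in KO-labelled libraries, against 1332, 886 and 877 in WT (adjusted p 0.00404, limma). KO replicate 2 stood above the other KO-labelled libraries and far below WT. INPP5D, the gene of the inositol phosphatase SHIP1, which damps Fc receptor signals, had 3.72, 4.19 and 16.8 in KO-labelled libraries, against 396, 340.2 and 247 in WT (adjusted p 0.00186, limma). The exchange factor genes VAV1 and VAV3 fell 11.1-fold and 9.06-fold, and LCP2, the gene of the adaptor SLP-76, fell 12.7-fold. PIK3R1, a regulatory subunit gene of PI3-kinase, fell 1.77-fold. LCP2 and PIK3R1 lie on chromosome 5, where the median log2 difference over 693 tested genes was -0.62. After each library was centred on its chromosome PIK3R1 no longer passed (log2 difference -0.31; adjusted p 0.333, limma). The gene that rose was PLCG1, named after its value was seen, with means of 4431 ± 1156 in KO-labelled and 2053 ± 579 in WT libraries (SD, n = 3 each; adjusted p 0.0388, limma). Like CEBPB it lies on chromosome 20, where the median log2 difference over 393 tested genes was 0.54. PLCG2, its counterpart in blood cells, fell with the block, with means of 254 ± 112 in KO-labelled and 677 ± 213 in WT libraries (SD, n = 3 each; adjusted p 0.0516, and 4.99e-04 with the block, limma).

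CD33, a sialic-acid receptor of the myeloid lineage, carries inhibitory tyrosine motifs that recruit the phosphatases SHP-1 and SHP-2. The gene lies on the plus strand of chromosome 19, from 51225064 to 51243860. Its values were 1626, 1646 and 1282 in KO-labelled libraries, against 2706, 2831 and 2495 in WT. Each group was tight and they were apart. The means were 1518 ± 205 in KO-labelled and 2677 ± 169.99 in WT libraries (SD, n = 3 each), a 1.77-fold fall (log2 difference -0.83, SE 0.15; adjusted p 0.0161, and 3.45e-04 with the block, limma). The call was lost without KO replicate 3, WT replicate 2 or WT replicate 3, at adjusted p-values of 0.0707, 0.0737 and 0.0632 (limma). Of 8 tested genes of Siglecs and their phosphatases 2 fell, CD33 among them, and 1 rose. PTPN6, the SHP-1 gene, fell with values of 10.6, 2.62 and 14.1 in KO-labelled libraries, against 85.1, 102 and 108 in WT (adjusted p 0.0108, limma), and 1 of its KO-labelled libraries was under the filter. PTPN11, the SHP-2 gene, had a log2 difference of -0.17 (adjusted p 0.635, and 0.0496 with the block, limma). MAG, a Siglec gene of myelin, rose, with 159, 157 and 120.1 in KO-labelled libraries, against 63.96, 81.0 and 53.4 in WT (adjusted p 0.0463, limma). The call of MAG was lost whichever single library was left out, at adjusted p-values from 0.0624 to 0.177 (limma).

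CD68 encodes a heavily glycosylated protein of macrophage endosomes and lysosomes in the LAMP family. It lies on the plus strand of chromosome 17, from 7579467 to 7582113. Its values were 98.1, 72.4 and 103 in KO-labelled libraries, against 248, 180.4 and 209.9 in WT. The groups were apart, and the level was low in both. The means were 91.1 ± 16.3 in KO-labelled and 213 ± 34.1 in WT libraries (SD, n = 3 each), a 2.33-fold fall (log2 difference -1.22, SE 0.25; adjusted p 0.0283, limma). The call held without WT replicate 1 (adjusted p 0.0476, limma). It was lost without any of the other libraries, from 0.0576 without KO replicate 1 to 0.119 without WT replicate 3 (adjusted p, limma). Of the 50-base words in its transcripts 74.3% also occur in other genes, chiefly a transcript that overlaps it on the same strand (ENSG00000264772), which had means of 313 in KO-labelled and 357 in WT libraries. The value of CD68 is therefore uncertain. Of other endolysosomal membrane protein genes LAMP1, LAMP2 and CD63 had log2 differences of 0.30, 0.04 and 0.07, with adjusted p-values from 0.628 to 0.914 (limma).

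LYZ, the gene of the bacteria-digesting enzyme of granules and macrophages, did not pass in either fit. It lies on the plus strand of chromosome 12, from 69348341 to 69354234. Its values were 606, 548 and 439 in KO-labelled libraries, against 422, 412 and 531 in WT. The groups overlapped, since WT replicate 3 exceeded KO replicate 3. The means were 531 ± 84.9 in KO-labelled and 455 ± 66.0 in WT libraries (SD, n = 3 each). The log2 difference was 0.22, with a 95% interval from -0.26 to 0.70 (adjusted p 0.587, and 0.351 with the block, limma). Among 20 granule protein genes 6 had a value that was used here and 4 were tested. SRGN, the gene of the proteoglycan serglycin that packs granule contents, fell 2.72-fold, with 1229, 1239 and 1541 in KO-labelled libraries, against 2734, 4046 and 4254 in WT (adjusted p 0.00707, limma).

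Of 21 tested lysosomal hydrolase genes 5 rose, none fell (limma; 11 at an unadjusted p of 0.05) and 16 did not pass. Their median log2 difference was 0.47, with 6 of the 21 below 0. With the block 12 rose and 4 fell, in a fit where 19.7% of all tested genes passed higher and 20% lower. HEXA, a hexosaminidase subunit gene, rose 1.86-fold, with 5284, 4418 and 4383 in KO-labelled libraries, against 2692, 2553 and 2301 in WT (adjusted p 0.00839, limma). TPP1, GUSB, CTSD and CTSA rose 1.82-fold, 1.64-fold, 1.64-fold and 1.65-fold. GUSB lies on chromosome 7 and CTSA on chromosome 20, where the median log2 difference over tested genes was 0.39 and 0.54. After centring on the chromosome GUSB (log2 difference 0.29; adjusted p 0.198), CTSA (0.18; 0.533) and CTSD, on chromosome 11 (0.62; 0.0603), no longer passed (limma). CTSS, the macrophage cathepsin S gene, was lower, with 988, 441 and 354 in KO-labelled libraries, against 1868, 961 and 1153 in WT, and it fell with the block (adjusted p 0.132, and 9.99e-04 with the block, limma).

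Genes known as PU.1 targets in myeloid cells, outside the 8, were read as a list of 34. Of these 24 had a value that was used here and 18 were tested. Of the 18, 6 fell and none rose (limma; 9 at an unadjusted p of 0.05), and with the block 11 fell and 1 rose. Among all tested genes 4.96% passed lower in the unpaired fit and 20% with the block. Of the 6, CORO1A, CSF2RB and ITGB2 had KO-labelled libraries under the filter and were tested because of their WT values, so the count is no support for a direction of the list. PTPRC, the gene of the phosphatase CD45, had 10.4, 22.02 and 21.2 in KO-labelled libraries, against 18359.5, 13534 and 14583 in WT (adjusted p 3.78e-05, limma). CD53, a leukocyte tetraspanin gene, fell 20.4-fold, with 423, 275 and 200.4 in KO-labelled libraries, against 5261, 5914 and 6383 in WT (adjusted p 2.68e-04, limma). CORO1A, the gene of a leukocyte actin-binding protein, fell 19.96-fold, with 15.7, 6.66 and 9.26 in KO-labelled libraries, against 235, 174 and 252 in WT (adjusted p 9.43e-04, limma). The remaining calls were VAV1, given above, CSF2RB, the shared receptor chain for GM-CSF, and ITGB2, the beta chain of leukocyte integrins. CSF2RB had means of 1.68 in KO-labelled and 18.2 in WT libraries. ITGB2 had 14.3, 9.94 and 5.25 in KO-labelled libraries, against 127, 31.4 and 47.1 in WT (adjusted p 0.0465, limma), and did not pass after centring on the chromosome (adjusted p 0.056, limma). ITGAM, the alpha chain that pairs with ITGB2, had 1690.1, 426 and 194 in KO-labelled libraries, against 3712, 1353 and 1088 in WT. KO replicate 1 lay within the WT range there, and the adjusted p was 0.257, and 0.00115 with the block (limma). As for SPI1, replicate 1 was the highest library of each genotype. ITGAX, another integrin chain gene of myeloid cells, had 175, 42.8 and 100.9 in KO-labelled libraries, against 55.5, 46.9 and 53.5 in WT (adjusted p 0.408, limma). BTK, a kinase gene of myeloid and B cells, had a log2 difference of -0.06 (adjusted p 0.864, limma).

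**Figure D3:**
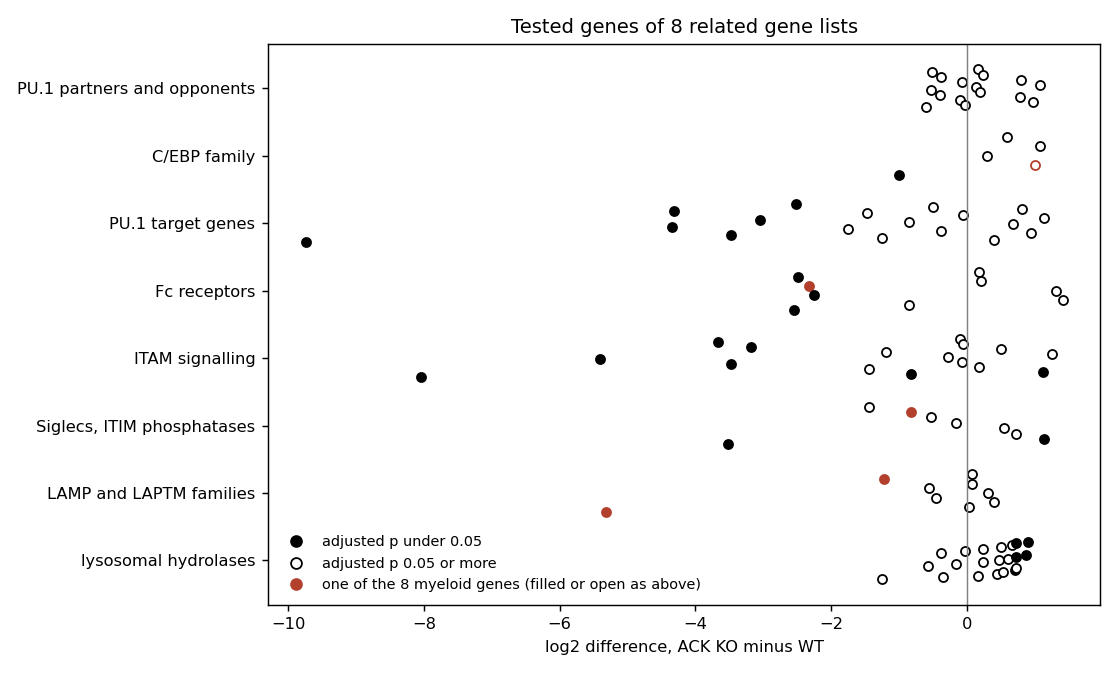
Log2 difference (horizontal axis, ACK KO minus WT, unpaired limma fit) of each tested gene of 8 related lists, 1 point per gene and spread vertically only for legibility; filled points have an adjusted p under 0.05 and red points are among the 8 genes described here. The calls in the lists of PU.1 target genes and Fc receptors lie left of 0, and the calls among lysosomal hydrolases lie right of 0. In the first lists named, 3 of 6 target gene calls and 3 of 4 Fc receptor calls were tested because of their WT values. Their side of 0 is therefore no support, and the lists were written with earlier results known.

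Levels of different genes were compared per kilobase of annotated exon. In the KO-labelled libraries CEBPB was the highest, at 1167 ± 569 per kilobase (SD, n = 3), and its range did not meet that of LYZ, which came next at 301 ± 48.1. LYZ, CD33, FCGR2A, SPI1 and LAPTM5 followed in that order, each with a range that overlapped its neighbour, down to 129 ± 25.6 for LAPTM5. CD68 at 41.6 ± 7.44 and FCER1G at 3.97 ± 2.42 stood apart below. In WT LAPTM5 was the highest, at 5093 ± 159 per kilobase. Its mean per kilobase stood above 38.8% of 13771 protein-coding genes in the KO-labelled libraries and above 98.1% of them in WT. FCGR2A, CEBPB, CD33 and SPI1 followed in WT, from 863 ± 489 to 408 ± 114, with overlapping ranges between neighbours. LYZ at 258 ± 37.4, CD68 at 97.3 ± 15.6 and FCER1G at 7.67 ± 2.37 came last, each apart from the gene above it. By this measure the highest of the 8 genes was CEBPB in KO-labelled cells and LAPTM5 in WT cells. With other transcript lengths the order and the gaps between genes could differ.

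The genes whose profiles over the 6 libraries lay nearest to SPI1 and CEBPB were found among genes with a mean of 100 or more. Likeness was the root mean square difference of log2(value + 1) after each gene was centred on its own mean. For SPI1 the nearest was TRIM25, a ubiquitin ligase gene of antiviral signalling, at 0.152. COL4A2, a basement membrane collagen gene, lay at 0.202, the unnamed gene ENSG00000248491 at 0.207, LRRC56 at 0.243 and SHFL at 0.244. TRIM25 had values of 4659, 1532 and 1365 in KO-labelled libraries, against 11002, 5971 and 6252 in WT. For CEBPB the nearest was KIF5A, a kinesin gene, at 0.0439, with 2978, 1442 and 1396 in KO-labelled libraries, against 1565, 715 and 701 in WT. RAVER2, ARHGEF16, PTPRH and ADCK2 lay between 0.0883 and 0.0994. The 6 libraries share 2 genotypes and 3 replicate numbers, so many genes can have a like shape. Since they were chosen for this likeness, their differences between genotypes were not read as results.

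**Figure D4:**
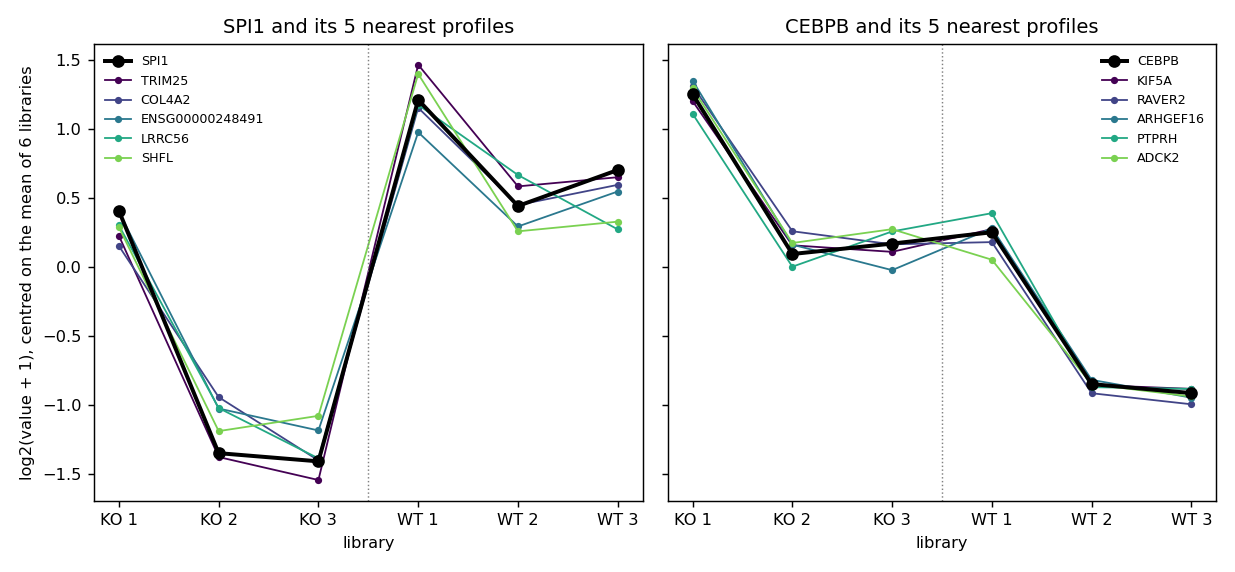
Log2(value + 1), centred on each gene's mean over 6 libraries (vertical axis), in 3 ACK KO libraries and 3 WT libraries (horizontal axis; lines join the points of a gene to guide the eye) for SPI1 (left) and CEBPB (right) in black, each with its 5 nearest genes. Both sets are highest in replicate 1 of each genotype, and TRIM25 follows SPI1 at 0.152 and KIF5A follows CEBPB at 0.0439 (root mean square).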

How the data were processed

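RNA of 6 K562 libraries (3 ACK KO, 3 WT) was used. Per the labels' protocols each stranded polyadenylated library was made from 500 ng RNA whose integrity score was 10. The submitters' processing notes name STAR 2.7.2b, Salmon 1.1.0, DESeq2 1.26.0 and GRCh38, without roles. The deposited values are a signal, normalised counts per gene that are not whole. Whole reads could not be recovered, since at most 39.4% of values under 15 lay within 0.02 of a multiple of a common step. The lowest gene mean was 3.38, and 1086 of 19498 genes have a 0. Symbols matched 19392 identifiers and GENCODE 29 positions 19112.

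Log2(value + 1) was tested with limma 3.58.1 (R 4.3.3; intensity trend, Benjamini-Hochberg, threshold 0.05) on 16658 genes that reached 10 in at least 3 libraries. Folds are 2 to the power of the fitted log2 difference, which understates changes of low genes. The labels call the samples biological replicates without naming separate cultures, so p-values measure the spread between these libraries. Libraries with the same number deviated together from their group means across genes (correlations of 0.699, 0.521 and 0.342 for numbers 1, 2 and 3, each over 0.1), so blocked values stand beside results whose call they change. KO replicate 2 with WT replicate 3 and KO replicate 3 with WT replicate 2 were also over 0.1, at 0.257 and 0.281. Pairing of replicates 2 and 3 by number is therefore uncertain. Members and lists were chosen with earlier results of these data known. The rule named the 8 genes, TNK2, at most 6 called genes per list (or the 2 most abundant where none passed), the 5 nearest profiles of SPI1 and of CEBPB, and the 2 tested genes on each side of a member. Other genes, such as CEBPA, RUNX1, PLCG2, FCGRT, PTPN11, CTSS, TYROBP, BTK, CD14, CD63 and the LAMP and LAPTM relatives, were named after their values were seen.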

Additional observations from a re-analysis of the deposited data

How the results depend on the processing

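The count of called genes among the 8 was 4 with a pseudocount of 0.5 or 5, with no filter or a filter at 50, with median ratio scaling, without the intensity trend and with chromosome centring. It was 3 with equal sums per library (CD68 at an adjusted p of 0.0642, limma), 6 with the replicate block, 6 without both replicate 1 libraries, and 1 to 4 when 1 library was left out. Over all tested genes 1721 passed, against 6612 with the replicate block, 4731 without both replicate 1 libraries and 726 to 2183 when 1 library was left out. The cause was not tested. Equal sums moved the median log2 difference of all genes to 0.08, with 61.6% of calls higher, against 51.9% as deposited. Among the 8 genes and those the rule named from the lists, ITGB2, PIK3R1, GUSB, CTSD and CTSA lost their call with chromosome centring. ITGB2, CTSD and CTSA lost it without the intensity trend, and CD68, CEBPD and ITGB2 with equal sums. Of 23 called genes named from the lists, all 23 kept their call with the block and without both replicate 1 libraries, and 8 did in each fit that left out 1 library. When 1 library was left out, the log2 difference of SPIB ranged from -0.0403 to 0.719, below 0 without WT replicate 1. Read depth is unknown, so the counting error of low values such as those of FCER1G is unknown too.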
